A study of Homo sapiens with 20 samples.

Results

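The loci of 10 C-type lectin receptor genes of myeloid cells, CLEC4A, CLEC4C, CLEC4D, CLEC4E, CLEC5A, CLEC7A, CLEC10A, CLEC12A, CLEC12B and CLEC2B, were examined for binding of the transcription factor RUNX1 after knockdown of PU.1. Every RUNX1 peak that lay within 50 kb of the span of 1 of these genes was taken as a member, whatever its change, which gave 11 peaks of the 26642 in the deposited table. Of the 10 genes, 9 had at least 1 such peak and CLEC4C had 0. Gene spans came from RefSeq on GRCh38, and the peaks lie on chromosomes 7, 12 and 17.

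RUNX1-bound chromatin was immunoprecipitated and sequenced (ChIP-seq) from THP-1 cells, an established line grown from a human acute monocytic leukemia. Cells carried an shRNA cassette that was induced with doxycycline in both groups, directed against PU.1 in the knockdown and scrambled in the control. There were 6 control and 6 knockdown RUNX1 libraries, split by the labels into batch 1 with 3 control and 2 knockdown libraries and batch 2 with 3 control and 4 knockdown libraries, and 8 further IgG libraries of the series were not analysed here. Both groups are the same cell line, and the authors describe the libraries as cell line replicates, each immunoprecipitated and prepared separately. The labels do not say that libraries came from separate cultures, so p-values measure the spread between these libraries, which may be technical. The assay does not read the PU.1 transcript, and the extent of the knockdown was therefore not checked here. The authors show a Western blot of PU.1 protein in THP-1 knockdown and control cells, which was not re-examined. Reads within all peaks ranged from 630247 to 1199004 per control library and from 938745 to 1719840 per knockdown library. Values below are normalised read counts, the deposited counts divided by the size factor of each library, and a peak was called gained or lost in the knockdown where the DESeq2 adjusted p was under 0.05 and the fitted fold exceeded 1.1.

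C-type lectin receptors are membrane proteins with a carbohydrate-recognition fold, through which monocytes, macrophages, neutrophils and dendritic cells sense microbial sugars, lipids and damaged cells. Activating members signal through SYK, either from a motif of their own or from the adaptors FcRγ (FCER1G) and DAP12 (TYROBP), and engage CARD9, BCL10 and MALT1, whereas inhibitory members carry an ITIM that recruits the phosphatases PTPN6 and PTPN11. Many of these genes are clustered on the short arm of chromosome 12 beside the natural killer receptor genes. PU.1 is the ETS factor that drives monocytic differentiation, and RUNX1 often occupies the same regulatory elements.

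The promoters of the genes whose nearby peaks changed most, or that had no nearby peak, are shown because RUNX1 peaks were not found on them. The RefSeq promoter table (GRCh38.p14, from 250 bases before to 50 bases after the start, 5′ to 3′ on the strand of the gene) held 5 of the 10 genes: CLEC5A, CLEC4E, CLEC4C, CLEC12A and CLEC12B. None of these 5 windows was covered by a peak. The gap from the promoter window to the nearest peak was 5614 bp for CLEC12A, 13343 bp for CLEC5A, 16545 bp for CLEC12B, 47217 bp for CLEC4E and 89355 bp for CLEC4C. The promoter of C3AR1, the receptor gene for the complement fragment C3a, is shown for contrast since 1 peak counted for CLEC4A covered it. Capitals mark the letters TGTGGT and TGCGGT, which RUNX factors bind, and GAGGAA, the core bound by PU.1, on either strand (ACCACA and TTCCTC where the match is on the opposite strand).
CLEC5A, minus strand, chr7:141946925-141947224: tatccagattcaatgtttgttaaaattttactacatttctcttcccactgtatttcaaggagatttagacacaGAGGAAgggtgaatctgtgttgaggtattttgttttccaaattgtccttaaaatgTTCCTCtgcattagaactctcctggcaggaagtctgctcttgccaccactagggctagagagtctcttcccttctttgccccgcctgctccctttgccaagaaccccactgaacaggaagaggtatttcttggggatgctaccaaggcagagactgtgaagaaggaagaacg
CLEC4E, minus strand, chr12:8540856-8541155: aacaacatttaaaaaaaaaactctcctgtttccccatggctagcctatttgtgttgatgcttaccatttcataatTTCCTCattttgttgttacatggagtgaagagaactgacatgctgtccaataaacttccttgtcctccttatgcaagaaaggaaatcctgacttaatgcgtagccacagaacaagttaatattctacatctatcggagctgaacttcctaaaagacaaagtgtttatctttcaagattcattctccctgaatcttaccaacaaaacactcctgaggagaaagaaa
CLEC4C, minus strand, chr12:7747326-7747625: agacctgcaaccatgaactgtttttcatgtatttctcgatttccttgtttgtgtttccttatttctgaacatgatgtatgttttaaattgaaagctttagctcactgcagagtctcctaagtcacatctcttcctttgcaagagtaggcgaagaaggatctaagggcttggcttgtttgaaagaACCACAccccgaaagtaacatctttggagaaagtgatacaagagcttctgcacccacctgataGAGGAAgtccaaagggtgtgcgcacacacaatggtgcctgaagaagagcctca
CLEC12A, plus strand, chr12:9971159-9971458: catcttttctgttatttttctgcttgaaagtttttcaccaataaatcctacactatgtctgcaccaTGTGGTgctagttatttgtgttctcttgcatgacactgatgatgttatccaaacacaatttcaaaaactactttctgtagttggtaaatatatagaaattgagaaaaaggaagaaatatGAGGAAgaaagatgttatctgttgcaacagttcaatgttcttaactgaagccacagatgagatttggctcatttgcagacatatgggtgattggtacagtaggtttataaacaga
C3AR1, minus strand, chr12:8066310-8066609: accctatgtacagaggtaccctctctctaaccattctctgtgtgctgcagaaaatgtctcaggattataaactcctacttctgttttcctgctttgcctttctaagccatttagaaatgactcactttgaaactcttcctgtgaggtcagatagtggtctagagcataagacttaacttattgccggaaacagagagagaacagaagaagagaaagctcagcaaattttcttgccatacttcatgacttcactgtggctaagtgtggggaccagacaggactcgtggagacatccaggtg

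The CLEC5A promoter held 2 matches to the PU.1 core and 0 to the RUNX letters. CLEC12A and CLEC4C each held 1 RUNX match and 1 PU.1 core match, CLEC4E and CLEC12B each held 1 PU.1 core match and 0 RUNX matches, and C3AR1 held 0 of either although a RUNX1 peak lay on it. Among all 34943 promoters of this length in the table, 19.6% held a RUNX match, 27.9% a PU.1 core match and 5.4% both. A match is a description of letters and not a binding site.

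Across the 11 peaks, RUNX1 binding went in both directions. It was lost at 1 peak near CLEC5A and 1 beside CLEC4D and CLEC4E, and gained at 1 peak in CLEC12A and 1 near CLEC10A. The peaks of CLEC7A, CLEC4A and CLEC2B and the further peaks of CLEC12A, CLEC12B and CLEC10A were not called. In the fit over both batches 4 of 11 peaks (36.4%) were called, against 42.0% of all 26642 peaks. Of the 4, 2 were gained (18.2%, against 21.3% of all peaks) and 2 were lost (18.2%, against 20.7%). The share of called peaks at the lectin loci was thus near that of the whole table. The median log2 fold change (knockdown over control) was 0.01 over the 11 peaks and -0.02 over all peaks, and the values at the lectin loci ran from -2.40 to 1.27. In these 4 peaks, and in no other of the 11, the control and knockdown libraries were separated in both batches, as were those of 28.3% of all peaks.

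**Figure D1:**
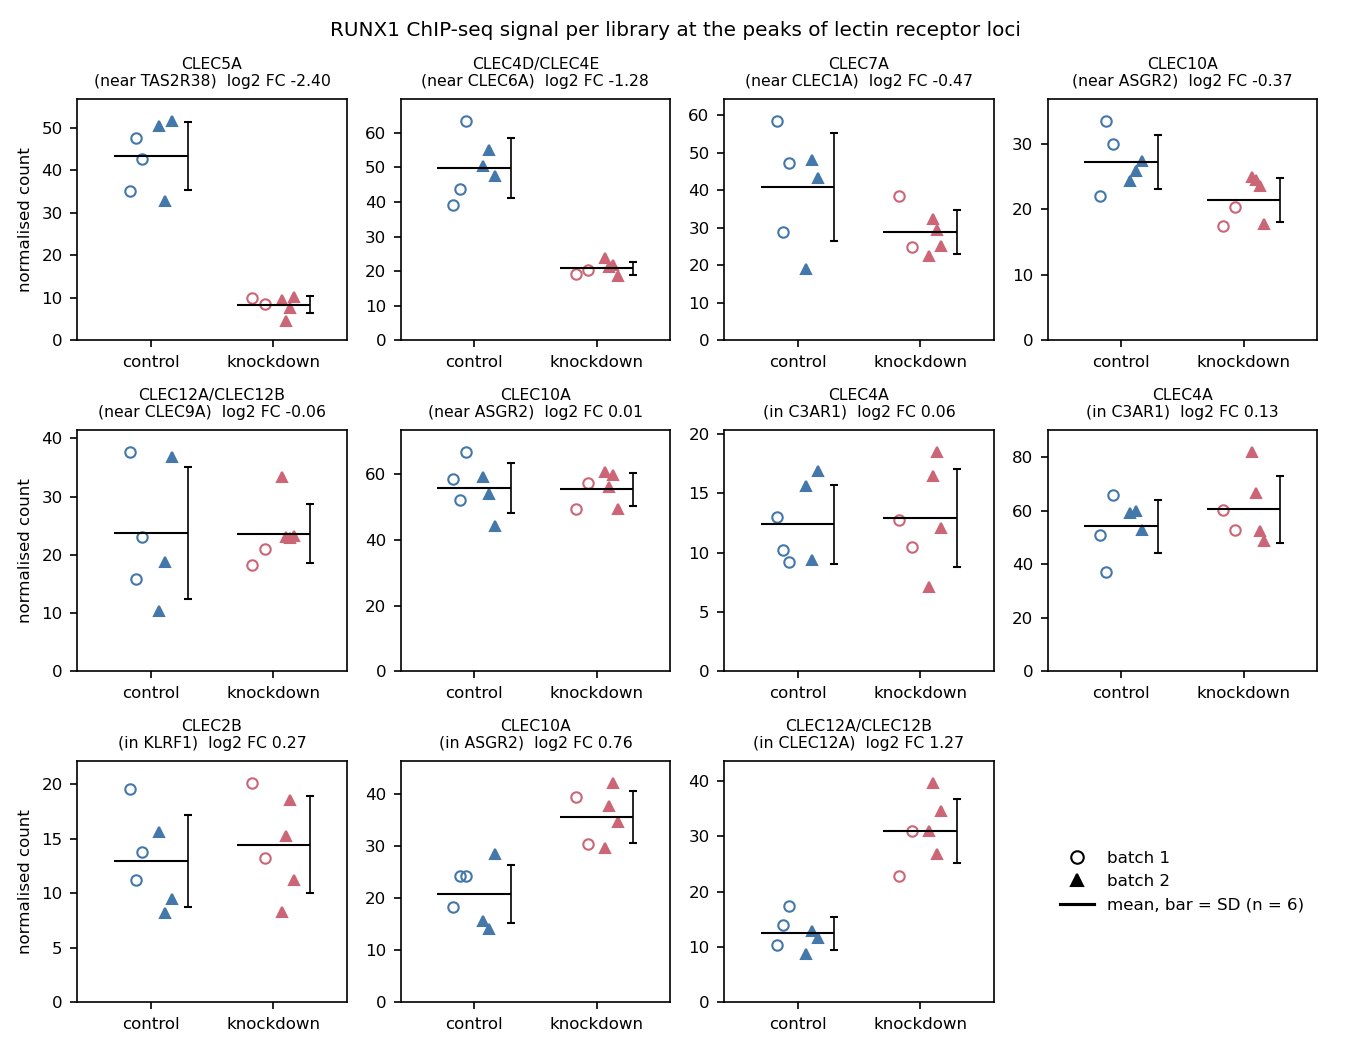
RUNX1 normalised read count (vertical axis) of each library at each of the 11 lectin peaks, in control and knockdown, with open circles for batch 1, filled triangles for batch 2, a line at the mean and a bar for the SD (n = 6 per group). The knockdown libraries lie below all control libraries at CLEC5A (4.62 to 10.3 against 32.8 to 51.6) and CLEC4D/CLEC4E, and above them at the CLEC12A peak at chr12:9964946-9965545 (22.8 to 39.6 against 8.67 to 17.3) and the CLEC10A peak at chr17:7114774-7115857.

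The largest change was upstream of CLEC5A. This receptor, also called MDL-1, is carried by monocytes, macrophages and neutrophils, pairs with the adaptor DAP12 and binds dengue virus. The only peak within 50 kb of its span (chr7:141927357-141946974) lay at chr7:141960567-141961477, was 911 bp wide and began 13593 bp upstream of the gene's start, and the nearest protein-coding gene was TAS2R38, a bitter taste receptor gene, at 11154 bp. In batch 1 the control libraries had 35.1, 47.5 and 42.6 normalised counts and the knockdown libraries 10.0 and 8.56. In batch 2 the controls had 50.3, 32.8 and 51.6 and the knockdowns 9.50, 4.62, 7.65 and 10.3. All 6 knockdown libraries were lower than every control library. The mean fell from 43.3 ± 7.91 to 8.44 ± 2.11 (SD, n = 6 per group), a fitted fold of 5.26 lower, with a log2 fold change of -2.40 ± 0.26 (SE) and a DESeq2 adjusted p of 4.0e-18. Within batches the log2 fold change was -2.17 ± 0.46 in batch 1 (DESeq2 adjusted p = 0.000226) and -2.53 ± 0.37 in batch 2 (DESeq2 adjusted p = 9.5e-10). The batch 1 call was lost without knockdown replicate 2 (log2 fold change -2.04, DESeq2 adjusted p = 0.097). Only 0.507% of all peaks had a lower log2 fold change, while the 62 peaks within 5 Mb on either side had a median of -0.09. Raw counts in the knockdown were 7 to 13 reads per library, so the remaining level was measured less precisely than the control level of 27 to 51 reads.

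CLEC4D and CLEC4E shared 1 lost peak. CLEC4E, known as Mincle, senses the mycobacterial cord factor, and CLEC4D, known as MCL, assembles with it, with both signalling through FcRγ. The peak at chr12:8492949-8493639 (691 bp) lay 19864 bp from the span of CLEC4D (chr12:8513503-8531696) and 39636 bp from that of CLEC4E (chr12:8533275-8540905), 47266 bp downstream of the CLEC4E start, while the nearest gene was CLEC6A, encoding the fungal mannan receptor Dectin-2, at 14619 bp. In batch 1 the controls had 39.0, 43.7 and 63.4 normalised counts and the knockdowns 19.2 and 20.4. In batch 2 the controls had 50.3, 55.1 and 47.4 and the knockdowns 23.8, 21.1, 21.7 and 18.6. The knockdown libraries were close to each other and all lay under the lowest control library. The mean fell from 49.8 ± 8.63 to 20.8 ± 1.85 (SD, n = 6 per group), a log2 fold change of -1.28 ± 0.20 (SE) with a DESeq2 adjusted p of 1.4e-09. The batches gave nearly the same size, -1.28 ± 0.39 in batch 1 (DESeq2 adjusted p = 0.0154) and -1.26 ± 0.27 in batch 2 (DESeq2 adjusted p = 6.3e-05). In batch 1 this call was lost when control replicate 2, control replicate 3, knockdown replicate 1 or knockdown replicate 2 was left out (log2 fold change -1.36 to -1.05, DESeq2 adjusted p from 0.0736 to 0.33). A log2 fold change below this one was found in 5.37% of all peaks.

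CLEC7A, or Dectin-1, is the β-glucan receptor for fungal cell walls and activates SYK through a motif of its own. Its single peak, at chr12:10102172-10102825 (654 bp), lay 13952 bp from its span (chr12:10116777-10130304) and 3187 bp from CLEC1A, the neighbouring lectin gene. The lowest, median and highest normalised counts were 19.1, 45.2 and 58.5 in the control and 22.6, 27.2 and 38.4 in the knockdown. The groups overlapped, because control replicate 2 (28.8) and control replicate 4 (19.1) lay within or under the knockdown range. The means were 40.8 ± 14.3 in control and 28.8 ± 5.84 in knockdown (SD, n = 6 per group), with a log2 fold change of -0.47 ± 0.22 (SE, 95% interval -0.90 to -0.05). The DESeq2 adjusted p was 0.0647, so the peak was not called, and it was called by edgeR's quasi-likelihood test (adjusted p = 0.0358). Without control replicate 2 the DESeq2 adjusted p was 0.021, without control replicate 4 it was 0.0141 and without knockdown replicate 1 it was 0.0488. Leaving out any other single library kept the peak uncalled, with a DESeq2 adjusted p from 0.0608 (knockdown replicate 4) to 0.229 (knockdown replicate 2).

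Among the inhibitory receptors, CLEC12A gained binding inside its own span. CLEC12A is found on monocytes, granulocytes and leukemic blasts, recognises uric acid crystals of dead cells and signals through an ITIM, as does its neighbour CLEC12B. The peak at chr12:9964946-9965545 (600 bp) lay within the span of CLEC12A (chr12:9951268-10006150), 5864 bp upstream of the start that the promoter table gives, and 40664 bp from the span of CLEC12B (chr12:10006209-10018800). It was the only one of the 11 peaks whose nearest protein-coding gene was a member. In batch 1 the controls had 10.4, 14.0 and 17.3 normalised counts and the knockdowns 22.8 and 30.9. In batch 2 the controls had 8.67, 12.9 and 11.6 and the knockdowns 30.9, 39.6, 26.8 and 34.5. Every knockdown library was above every control library. The mean rose from 12.5 ± 3.0 to 30.9 ± 5.85 (SD, n = 6 per group), a 2.42-fold fitted gain with a log2 fold change of 1.27 ± 0.26 (SE) and a DESeq2 adjusted p of 8.8e-06. The call held in batch 2 (1.55 ± 0.38, DESeq2 adjusted p = 0.000622). In batch 1 the log2 fold change was 0.97 ± 0.50 and the peak was not called (DESeq2 adjusted p = 0.205), whereas edgeR's adjusted p there was 0.0323. The control level rested on 5 to 15 raw reads per library.

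A further peak counted for the CLEC12A and CLEC12B loci, at chr12:10027221-10028095, did not pass the test. It lay 8421 bp from CLEC12B, 21071 bp from CLEC12A and 2587 bp from CLEC9A, a dendritic cell receptor for exposed actin. Normalised counts ran from 10.4 to 37.7 in the control and from 18.3 to 33.3 in the knockdown. The log2 fold change was -0.06 ± 0.26 (SE, 95% interval -0.57 to 0.44, DESeq2 adjusted p = 0.869), with -0.33 in batch 1 and 0.14 in batch 2. The control spread was the widest relative to its mean among the 11 peaks, 23.8 ± 11.2 (SD, n = 6).

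The span of CLEC4A (chr12:8102907-8138607), the inhibitory dendritic cell receptor DCIR, had 2 peaks in its window, and both lay at C3AR1 and not at CLEC4A. The stronger, at chr12:8057455-8058419 (965 bp), overlapped C3AR1 and lay 1938 bp from FOXJ2 and 44488 bp from CLEC4A. It had 54.2 ± 9.89 normalised counts in the control and 60.4 ± 12.4 in the knockdown (SD, n = 6 per group), and the libraries overlapped. Its log2 fold change was 0.13 ± 0.17 (SE, 95% interval -0.20 to 0.45, DESeq2 adjusted p = 0.562). The weaker, at chr12:8066218-8066672 (455 bp), covered the C3AR1 promoter printed above, 36235 bp from CLEC4A, with 12.4 ± 3.30 and 12.9 ± 4.09 normalised counts (SD, n = 6 per group). At that depth its 95% interval, -0.56 to 0.67 on the log2 scale, left room for a change of either sign (DESeq2 adjusted p = 0.907).

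CLEC10A, the macrophage galactose-type lectin that binds terminal galactose and N-acetylgalactosamine, had 3 peaks around its span at chr17:7074537-7080251, and they differed from each other. At chr17:7114774-7115857 (1084 bp, 34523 bp from CLEC10A and across 1 end of ASGR2, which encodes a subunit of the hepatic asialoglycoprotein receptor) binding was gained. The control libraries had 18.2, 24.2 and 24.2 normalised counts in batch 1 and 15.6, 14.1 and 28.4 in batch 2. The knockdown libraries had 39.3 and 30.3 in batch 1 and 29.7, 37.7, 42.1 and 34.5 in batch 2. The lowest knockdown library (29.7) was only just above the highest control (28.4). The mean rose from 20.8 ± 5.66 to 35.6 ± 4.98 (SD, n = 6 per group), with a log2 fold change of 0.76 ± 0.22 (SE) and a DESeq2 adjusted p of 0.00242. This was the weakest of the 4 calls. It was made in batch 2 (0.87 ± 0.33, DESeq2 adjusted p = 0.0331) and not in batch 1 (0.65 ± 0.42, DESeq2 adjusted p = 0.346), and in batch 2 it was lost when any 1 of control replicates 4 and 5 or knockdown replicates 4, 5 and 6 was left out (DESeq2 adjusted p from 0.0619 to 0.235).

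The other CLEC10A peaks were not called. At chr17:7120443-7121563 (1121 bp), 5297 bp from ASGR2, the means were 55.8 ± 7.61 in control and 55.4 ± 4.99 in knockdown (SD, n = 6 per group). Its log2 fold change of 0.01 had the narrowest error of the 11 peaks (SE 0.15, 95% interval -0.29 to 0.31, DESeq2 adjusted p = 0.957). This peak lies on the far side of the gained one, in the same 50 kb window. At chr17:7095505-7096110 (606 bp), the CLEC10A peak nearest to its span at 15254 bp, the means were 27.2 ± 4.10 and 21.4 ± 3.39 (SD, n = 6 per group), with a log2 fold change of -0.37 ± 0.22 (SE, 95% interval -0.80 to 0.07, DESeq2 adjusted p = 0.181).

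CLEC2B, or AICL, is the myeloid ligand of the natural killer receptor NKp80, which KLRF1 encodes. The 1 peak in its window, at chr12:9814155-9814876 (722 bp), overlapped KLRF1 itself, 37493 bp from the span of CLEC2B (chr12:9852369-9869354). It had 13.0 ± 4.20 normalised counts in the control and 14.4 ± 4.44 in the knockdown (SD, n = 6 per group). The groups overlapped, and the log2 fold change was 0.27 ± 0.31 (SE, 95% interval -0.33 to 0.88, DESeq2 adjusted p = 0.505).

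CLEC4C, or BDCA-2, is a receptor of plasmacytoid dendritic cells that signals through FcRγ. It had no RUNX1 peak within 50 kb of its span (chr12:7729383-7749541), which says that no peak was called there and gives no level of binding.

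**Figure D2:**
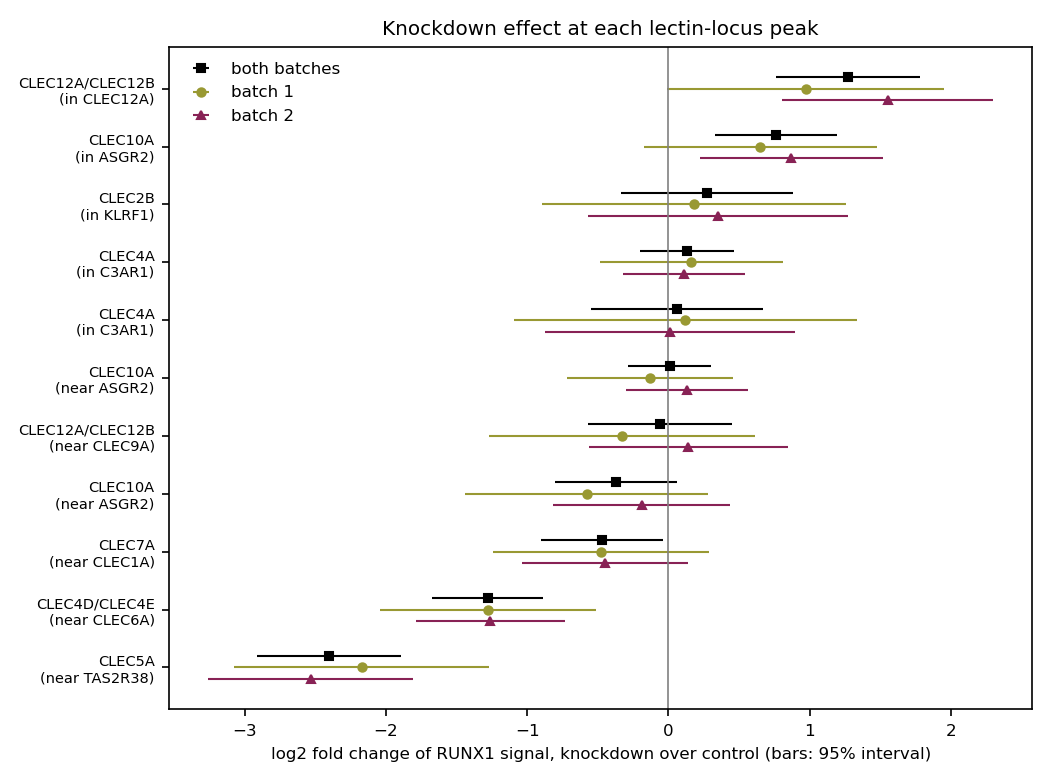
Log2 fold change (knockdown over control, horizontal axis) with its 95% interval for the 11 lectin peaks, from DESeq2 over both batches and within batch 1 and batch 2. The CLEC5A and CLEC4D/CLEC4E intervals lie below 0 in each of the 3 fits, while those of the gained CLEC12A and CLEC10A peaks reach 0 in batch 1.

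Within batches, 2 of 11 lectin peaks were called in batch 1, both lost, against 12% of all peaks called and 6.61% called lost. In batch 2, 4 of 11 were called, against 25.8% of all peaks, and these were the same 4 as in the fit over both batches. The sign agreed between batches at 9 of 11 peaks. No lectin peak passed a test of whether the knockdown effect differed between batches (the genotype by batch term). By DESeq2 0 of 11 passed beside 0 of all 26642 peaks, and by edgeR 0 of 11 beside 0 of all peaks. An outcome shared by the whole table does not show that the batches agree at these loci. Of the 11, 0 had an unadjusted p under 0.05 by either tool. The lowest unadjusted DESeq2 p was 0.286, at the gained CLEC12A peak. By edgeR over both batches 5 of 11 were called, against 47.1% of all peaks. Of the 5, 2 were gained (24.1% of all peaks) and 3 lost (22.9% of all peaks), the additional one being CLEC7A.

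The 10 lectin genes had a median of 1 peak within 50 kb and a maximum of 3, and 1 of 10 had 0. Over all 20037 protein-coding genes the median was 2, 19.2% had 0 and 66.9% had 0 to 3. The window of CLEC4D overlapped that of CLEC4E, and that of CLEC12A overlapped that of CLEC12B, so 3 of the 11 peaks were counted for 2 genes each and 14 gene and peak pairs came from 11 peaks. The 11 peaks had a median width of 722 bp (455 to 1121), against 889 bp over all peaks. Their median normalised count was 25.9, against 31.2 over all peaks, and 4 of 11 were at or above that value. The standard error of the log2 fold change ran from 0.15 to 0.31, with a median of 0.21 over all peaks.

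**Figure D3:**
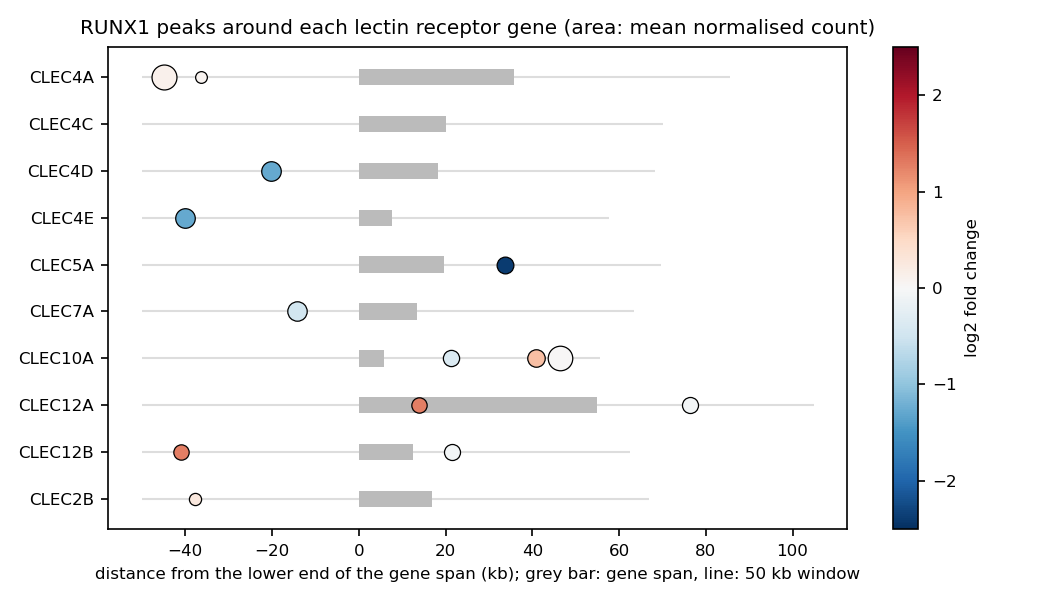
Position of each lectin peak relative to the lower end of its gene's span (horizontal axis, kb), with the span as a grey bar, the 50 kb window as a line, colour for the log2 fold change and area for the mean normalised count. The gained CLEC12A peak is the only one inside the span of 1 of the 10 genes, and the CLEC5A and CLEC4D/CLEC4E losses lie outside the spans at 13593 bp or more.

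The adaptors, kinases and phosphatases through which these receptors signal were examined in the same way. Peaks within 50 kb of 16 such genes numbered 89, of which 34 (38.2%) were called, 10 gained (11.2%) and 24 lost (27.0%), against 42.0%, 21.3% and 20.7% of all peaks, with a median log2 fold change of -0.17. When each fold change was centred on the median of the surrounding 10 Mb, 14 were gained and 18 lost. Among the 69 of these peaks with at least 10 counts in every library, 12 were gained and 11 lost. The shares of all peaks called under these alternative settings are not given here, so these counts are not compared with the whole table. By role, the adaptor loci FCER1G (8 peaks, 2 gained and 3 lost) and TYROBP (7 peaks, 2 gained and 1 lost) moved both ways. At the kinase LYN 4 of 8 peaks were lost and none was gained, and at SYK 2 of 3 were lost and none was gained. At the phosphatases of the inhibitory receptors, PTPN6 (2 peaks) and PTPN11 (3 peaks), none was called, whereas INPP5D, the lipid phosphatase SHIP1, had 1 gained and 4 lost of 9. Of the CARD9, BCL10 and MALT1 module, CARD9 had 1 lost of 3, BCL10 had 2 gained of 3 and MALT1 had 1 gained and 1 lost of 7. Further genes of the list were PLCG2 (1 lost of 7), PRKCD (1 lost of 9), VAV1 (1 gained and 2 lost of 9) and MAP3K7 (1 gained of 2).

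Inside LYN, a peak fell from 37.4 ± 7.92 to 12 ± 6.02 normalised counts (SD, n = 6 per group, log2 fold change -1.65 ± 0.26 SE, DESeq2 adjusted p = 6.4e-09). In the FCER1G window a peak within ADAMTS4, a protease gene 29054 bp away, fell from 123 ± 10.4 to 74.3 ± 8.76 (SD, n = 6 per group, log2 fold change -0.73 ± 0.12 SE, DESeq2 adjusted p = 1.2e-08). In the VAV1 window a peak within ADGRE1 rose from 37.0 ± 5.38 to 78.1 ± 11.8 (SD, n = 6 per group, log2 fold change 1.06 ± 0.17 SE, DESeq2 adjusted p = 3.0e-09).

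A list of 28 other lectin genes, among them the natural killer receptors of chromosome 12, had 36 peaks that were not also lectin members above. Of these 10 (27.8%) were called, 5 gained and 5 lost (13.9% each), against 42.0%, 21.3% and 20.7% of all peaks, with a median log2 fold change of -0.01. In COLEC12, a scavenger receptor with a collagen stalk, a peak fell from 28.8 ± 5.72 to 6.37 ± 2.24 (SD, n = 6 per group, log2 fold change -2.32 ± 0.30 SE, DESeq2 adjusted p = 3.7e-13). A peak in CLEC4F, also in the window of CD207, which encodes langerin, rose from 12.9 ± 4.07 to 35.9 ± 3.36 (SD, n = 6 per group, log2 fold change 1.45 ± 0.25 SE, DESeq2 adjusted p = 7.2e-08). In LY75, encoding the antigen uptake receptor DEC-205, a peak fell from 82.0 ± 12.1 to 44.8 ± 3.49 (SD, n = 6 per group, log2 fold change -0.83 ± 0.14 SE, DESeq2 adjusted p = 7.7e-08).

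**Figure D4:**
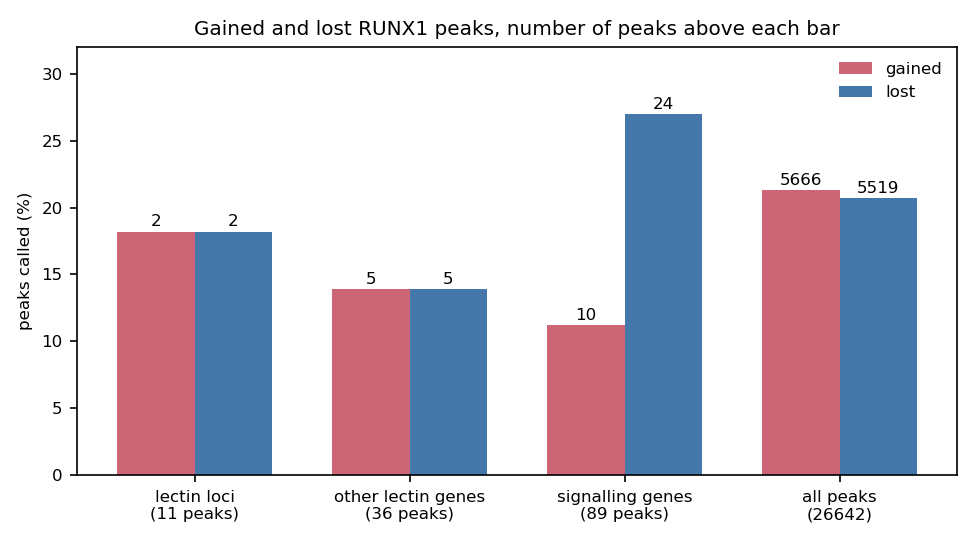
Share of peaks called gained or lost (vertical axis, percent) by DESeq2 over both batches for the lectin loci, the other lectin genes, the signalling genes and all peaks, with the number of peaks above each bar. The lectin loci had 18.2% gained and 18.2% lost beside 21.3% and 20.7% of all peaks, and the signalling genes had 27.0% lost.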

How the data were processed

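RUNX1 ChIP-seq was performed in 12 THP-1 libraries. The authors state that reads were aligned with bowtie2 and freed of duplicates, that macs2 was run for each condition within each batch, and that they retained reproducible peaks, merged the peaks of both conditions and counted reads by featureCounts (versions not given in the sources used here). The deposited values are raw counts per peak, without normalization, and the deposited width column, in bp, is other information. Peaks were called on the libraries compared here. The methods name a mouse build, so the build was settled from coordinates: 24.4% of peaks lay within 1 kb of the end of a GRCh38.p14 gene, against 5.48% to 7.58% after shifts of 10 kb to 1 Mb. Exons were not used here, and distances run to gene spans. A peak said to lie in, inside or within a gene overlaps its span and may extend beyond it.

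All 26642 peaks were fitted with DESeq2 1.42.0 (R 4.3.3) with batch and genotype as terms and Benjamini-Hochberg adjustment over the whole table, then within batches, with a genotype by batch term, and with edgeR 4.0.16. The scripts were tested on simulated data. Over 30 pairs of libraries of the same group, the chi-square of their counts divided by its degrees of freedom was 1.29 to 2.24, so no library was counted as a duplicate.

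Members, motifs and gene lists were chosen with earlier results of these data known. Named peaks were, for each gene, the one with the highest mean count and the called one with the smallest adjusted p, and for each list up to 3 called peaks with the smallest adjusted p. The peaks chr12:8066218-8066672 and chr17:7095505-7096110 fall outside this rule and were added to account for every member. Values of single genes are not reported here for 2 genes of the signalling list, which are part of its totals. Alternatives changed the size factors, count filter, tool, batch term, replicate block, thresholds, window and regional centring, or left out single libraries.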

Additional observations from a re-analysis of the deposited data

Results flagged for a closer look

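At the CLEC12A/CLEC12B peak chr12:10027221-10028095, knockdown replicate 3 had 33.3 normalised counts (28 raw reads), while the other knockdown libraries lay between 18.3 and 23.3. The gap to its nearest neighbour took a share of 0.664 of the group's range, above Dixon's critical value at the 95% level for 6 libraries. Of the 22 groups of 6 libraries searched, 1 stood out in this way, and chance gives about 1.1. The peak was not called with or without this library.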

How the results depend on the processing

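No result changed direction among called values. The 4 calls over both batches held under every other size factor, filter, tool, model and left-out library that tested those peaks: log2 fold changes stayed within -2.49 to -2.26 at CLEC5A, -1.32 to -1.19 at CLEC4D/CLEC4E, 1.19 to 1.39 at CLEC12A and 0.64 to 0.91 at CLEC10A. At a fold over 2, CLEC10A was not called and the other 3 were. CLEC7A was called in 6 of 19 alternatives. Over all 19, called or not, the lowest and highest adjusted p were 0.0141 and 0.369, both by DESeq2.

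The count of called lectin peaks, 4, became 1 of 5 tested when every library had to hold at least 10 counts (also 1 in batch 2), which removed CLEC5A, with as few as 7 reads in a knockdown library, and the gained CLEC12A and CLEC10A peaks, with as few as 5 and 9 in a control library. It became 1 of 2 in a window of 10 kb and 7 of 21 in a window of 100 kb. Leaving out 1 library gave 4 to 5 over both batches, 0 to 2 in batch 1, where CLEC5A alone remained without control replicate 2, control replicate 3 or knockdown replicate 1 and 0 remained without knockdown replicate 2, and 3 to 4 in batch 2. The signalling count of 34 became 21 at an adjusted p under 0.01, 11 at a fold over 2, 21 in a window of 10 kb and 24 to 34 without 1 library. The other lectin count of 10 became 5 at a fold over 2 and 9 to 11 without 1 library. The shares of all peaks called under these settings are not given here. A stricter threshold, a filter or a left-out library can change calls across all peaks, so these shifts are not read as particular to these loci.

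Replicate numbers did not pair the samples: correlations of same-numbered libraries ran from -0.0911 to 0.236, 3 of 6 were over 0.1, and 1 of 6 controls matched its own number best. With the replicate block the lectin count was 4 over both batches, 0 in batch 1, 3 in batch 2, and the signalling count 19. The share of all peaks called with this block is not given here either. The weakest lectin peaks were chr12:8066218-8066672 at CLEC4A and the CLEC2B peak, with mean normalised counts of 12.7 and 13.7 and the widest standard errors, 0.31.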

Other observations

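Just beyond the 50 kb window, 10 further peaks lay between 50 and 100 kb of a lectin gene, of which 3 were gained and 0 lost, where 42.0% of all peaks were called, 21.3% gained and 20.7% lost. The gained ones were chr17:7017651-7018635, 55902 bp from CLEC10A (log2 fold change 1.26 ± 0.25 SE, DESeq2 adjusted p = 2.4e-06), chr12:8229208-8230064, 90601 bp from CLEC4A (0.69 ± 0.16, DESeq2 adjusted p = 9.2e-05), and chr12:10212915-10213907, 82611 bp from CLEC7A (0.76 ± 0.19, DESeq2 adjusted p = 0.000284). These were chosen after their values were seen. The peak nearest to the limit on its outer side, 52717 bp from CLEC10A at chr17:7132968-7133917, was not called (-0.38 ± 0.24, DESeq2 adjusted p = 0.188), and the one nearest on its inner side, 44488 bp from CLEC4A, was not called either.

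Summed over the 11 lectin peaks, the normalised count was 353 ± 31.4 in the control (318 to 403) and 313 ± 21.9 in the knockdown (285 to 338, SD, n = 6 per group). With the batches pooled the groups overlapped. In batch 1 the controls had 363, 318 and 403 and the knockdowns 308 and 290, without overlap. In batch 2 the controls had 328, 339 and 370 and the knockdowns 333, 338, 323 and 285, with overlap. The sum was not tested. The 11 peaks held 0.0285% to 0.0363% of the reads within peaks in the control libraries and 0.026% to 0.0308% in the knockdown libraries.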
